A study of Mus musculus with 6 samples.

Results

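Doxorubicin (Dox) was given to tumour-bearing mice at 3 levels of ginsenoside Rh2, so that its effect on the heart could be read from 3 pairs of RNA-seq libraries, each pair differing in treatment by Dox alone and made from different mice. Control was set against Dox, and each group on Rh2 alone (Rh2-20 mg/kg and Rh2-30 mg/kg) against its counterpart labelled + Dox, which together took in all 6 libraries of the series. For each gene the log2 ratio of the level with Dox to the level without it was taken in each pair. A gene was counted as concordant when its 3 ratios had the same sign and each was at least 0.58 in size, a 1.49-fold difference. Of 45777 genes in the table, 26776 had a count and 18328 averaged 10 counts or more over the libraries. Among these 18328 genes, 414 were concordant (2.26%), of which 129 were higher with Dox (0.704%) and 285 were lower (1.55%). These shares describe genes chosen by their own ratios and were not tested.

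All mice were female BALB/c nude mice (CAnN.Cg-Foxn1nu/Crl, which lack a thymus through the Foxn1 mutation), labelled as 6 weeks old. All carried a subcutaneous xenograft of a stable pool of MDA-MB-231, a human breast cancer cell line. Control mice received saline and neither agent. The Dox groups received 2 mg/kg every other day up to 22 mg/kg in all, and the Rh2 groups 20 or 30 mg/kg of the ginsenoside every day. Treatment ran from day 7 and over 3 weeks. Each library was made from the pooled hearts of 5 mice, and each condition had 1 library. The spread between mice of a condition is therefore not visible, and the 3 pairs stand in as replicates of the Dox effect only so far as Rh2 does not change it. The pools also differed in tissue content, since atrial myocyte markers summed to 4452 normalised counts in the lowest library, Control, and to 160327 in the highest, Rh2-30 mg/kg. The libraries held 86164411 to 90621002 counts, and Ttn, the giant sarcomere protein titin, took 7.17% to 8.68% of them. Cardiac myocyte markers were high in every library, with 1021390 to 1348308 counts of Myh6, the main adult mouse cardiac myosin heavy chain.

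Dox is an anthracycline that inserts into DNA and traps type II topoisomerases on broken DNA, and its use is limited by damage to the heart. Cells that are dividing answer DNA damage by p53 and by halting the cycle before S phase and before mitosis. Adult cardiac myocytes scarcely divide, so transcripts of mitosis in heart tissue are thought to come largely from the few dividing non-myocytes, such as macrophages, endothelial cells and fibroblasts. Genes of mitosis share promoter elements: the cell cycle homology region, TTTGAA or TTTAAA, is held by the DREAM complex (a repressor of cell cycle genes) in resting cells, and CCAAT boxes are bound by NF-Y. Interferon-stimulated genes carry another element, with a core of 2 GAAA tracts spaced by 2 bases, which is bound by STAT and IRF proteins.

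The windows below show the promoters of genes on which the results turn, each from 250 bases before to 30 bases after the annotated start, in RefSeq sequence of the build GRCm38.p6 (the C57BL/6J reference, not the BALB/c genome). Capitals mark, on either strand, the homology region and the CCAAT box in the genes lower with Dox, and the interferon core in the genes higher with Dox. The mitotic windows are those of Cenpm (chr15:82244307-82244586 on the minus strand), Kif2c (chr4:117178743-117179022 on the minus strand), Nek2 (chr1:191821223-191821502 on the plus strand), Bub1 (chr2:127831830-127832109 on the minus strand), Kif18b (chr11:102925095-102925374 on the minus strand) and Cdk1 (chr10:69352883-69353162 on the minus strand). Cdk1, the kinase that drives entry into mitosis, was added after its values were seen. The interferon-related windows are those of Oas1a (chr5:120907496-120907775 on the minus strand) and Oas1g (chr5:120887584-120887863 on the minus strand).
Cenpm: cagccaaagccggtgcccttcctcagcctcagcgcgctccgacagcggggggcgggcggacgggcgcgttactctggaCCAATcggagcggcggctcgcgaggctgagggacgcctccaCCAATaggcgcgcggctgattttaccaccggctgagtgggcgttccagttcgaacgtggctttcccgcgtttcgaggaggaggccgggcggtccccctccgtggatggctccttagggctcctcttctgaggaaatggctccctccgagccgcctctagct
Kif2c: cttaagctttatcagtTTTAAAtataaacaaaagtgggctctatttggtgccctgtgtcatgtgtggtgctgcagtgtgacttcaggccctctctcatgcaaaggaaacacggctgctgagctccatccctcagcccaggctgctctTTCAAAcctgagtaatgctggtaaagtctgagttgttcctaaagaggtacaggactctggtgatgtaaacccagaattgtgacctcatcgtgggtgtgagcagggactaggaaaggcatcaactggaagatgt
Nek2: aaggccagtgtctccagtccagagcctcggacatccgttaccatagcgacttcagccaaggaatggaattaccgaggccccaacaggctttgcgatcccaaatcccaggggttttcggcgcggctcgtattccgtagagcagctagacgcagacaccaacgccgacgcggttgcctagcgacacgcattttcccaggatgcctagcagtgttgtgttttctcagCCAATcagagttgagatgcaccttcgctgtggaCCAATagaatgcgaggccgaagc
Bub1: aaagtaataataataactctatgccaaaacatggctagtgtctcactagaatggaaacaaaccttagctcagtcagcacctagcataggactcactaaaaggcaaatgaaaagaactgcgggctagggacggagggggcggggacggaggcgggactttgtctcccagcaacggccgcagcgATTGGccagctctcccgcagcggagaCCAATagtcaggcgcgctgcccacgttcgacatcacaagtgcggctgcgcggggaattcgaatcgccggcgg
Kif18b: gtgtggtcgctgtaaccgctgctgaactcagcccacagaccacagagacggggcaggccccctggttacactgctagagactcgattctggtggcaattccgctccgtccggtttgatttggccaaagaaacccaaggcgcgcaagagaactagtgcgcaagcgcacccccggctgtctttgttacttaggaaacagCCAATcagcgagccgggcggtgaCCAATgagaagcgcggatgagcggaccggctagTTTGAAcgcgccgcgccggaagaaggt
Cdk1: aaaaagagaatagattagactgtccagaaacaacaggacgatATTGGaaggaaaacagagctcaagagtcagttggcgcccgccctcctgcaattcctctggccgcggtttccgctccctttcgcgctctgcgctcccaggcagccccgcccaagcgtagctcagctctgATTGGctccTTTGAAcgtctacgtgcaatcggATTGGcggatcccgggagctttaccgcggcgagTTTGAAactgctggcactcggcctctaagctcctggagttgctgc
Oas1a: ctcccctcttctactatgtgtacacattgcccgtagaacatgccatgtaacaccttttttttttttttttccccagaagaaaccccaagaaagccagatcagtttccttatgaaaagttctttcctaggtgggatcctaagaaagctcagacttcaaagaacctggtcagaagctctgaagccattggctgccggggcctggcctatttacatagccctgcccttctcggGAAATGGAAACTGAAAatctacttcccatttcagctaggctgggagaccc
Oas1g: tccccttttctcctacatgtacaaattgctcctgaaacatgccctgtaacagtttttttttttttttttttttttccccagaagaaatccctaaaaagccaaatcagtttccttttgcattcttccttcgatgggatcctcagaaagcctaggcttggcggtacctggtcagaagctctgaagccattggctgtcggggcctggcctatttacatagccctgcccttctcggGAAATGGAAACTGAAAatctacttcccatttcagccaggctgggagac

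Motifs were searched on both strands of the 300-base windows of 27025 genes, from 250 bases before to 50 after the start. Of the 57 concordant lower genes in the kinetochore and mitotic lists described below, 49 had a window, and 37 of these held TTTGAA (75.5%). The motif was found in 15 of 35 other tested members of the lists (42.9%), in 12.8% of all tested genes with a window and in 18.1% of all windows. TTTGAA or TTTAAA was found in 81.6% of the concordant lower members, 51.4% of the other members and 20.4% of tested genes. CCAAT was found in 75.5%, 65.7% and 38.8% of the same groups. Cdk1 held TTTGAA at 2 places, Kif18b held it just after the start, and the windows of Cenpm, Nek2 and Bub1 held CCAAT but neither form of the homology region. The interferon core was found in the windows of Oas1a and Oas1g, in 14 of 30 other tested Oas and interferon-stimulated genes (46.7%) and in 3.19% of tested genes. In both Oas windows 2 overlapping copies lay just before the start. These matches describe letters in a window and say nothing of which factor was bound.

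The pairs did not resemble one another equally. At a size of 0.58, 2039 genes were higher and 1596 lower with Dox in the pair without Rh2 (19.8% of tested genes past that size), 1602 and 1228 in the pair at 20 mg/kg (15.4%), and 1298 and 3775 in the pair at 30 mg/kg (27.7%). Across the 18328 genes, which are not independent replicates, the ratios without Rh2 and at 20 mg/kg had a Spearman rho of 0.375 and the same sign in 65.9% of genes. The pair at 30 mg/kg had a rho of 0.051 with the pair without Rh2 and of -0.00022 with the pair at 20 mg/kg, and the sign was shared by 51.2% and 49.5% of genes. No 2 of these pairs share a library. Concordant lower genes were more highly counted, with a median of 94.3 mean counts, than concordant higher genes, with a median of 38.3, and both lay under the median of 881 counts over all tested genes. Of the lower genes 90.9% and of the higher genes 75.2% were protein-coding, against 82.9% of all tested genes.

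**Figure D1:**
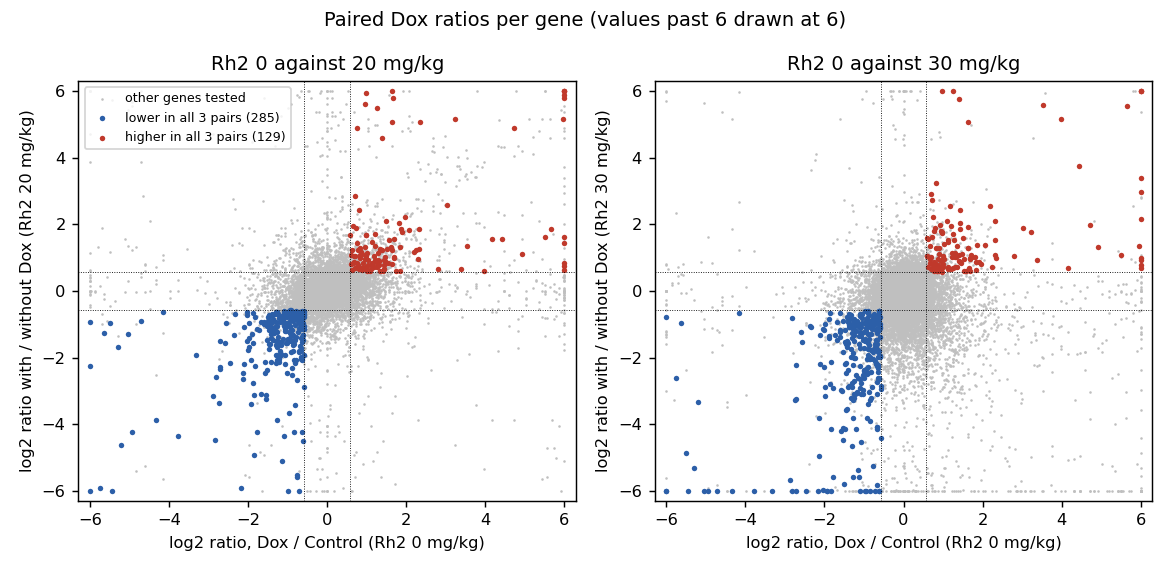
Each point is 1 of 18328 genes, with the log2 ratio of Dox to Control on the x axis and the log2 ratio in the pair at 20 mg/kg Rh2 (left) or 30 mg/kg Rh2 (right) on the y axis, and dotted lines at 0.58. The 129 concordant higher genes (red) and 285 concordant lower genes (blue) lie in opposite corners, and the grey cloud leans along the diagonal on the left (rho 0.375) but not on the right (rho 0.051).

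In the edgeR quasi-likelihood test with the Rh2 dose as a block, no gene reached an adjusted p (Benjamini-Hochberg over 18328 genes) under 0.05, and 664 genes were higher (3.62%) and 934 lower (5.1%) at an unadjusted p under 0.05. Limma-voom also called 0 genes, and DESeq2's Wald test called 311, 103 higher and 208 lower. Without the pair at 30 mg/kg Rh2, the edgeR test called 487 genes, 283 higher and 204 lower. Only 2 residual degrees of freedom remained with the block, and the biological coefficient of variation was 0.279. Comparing the 3 libraries with Dox and the 3 without, with no dose term, edgeR called 5 genes (0.0273%), namely Oas1a, Oas1g and LOC115490171, which were higher, and Cenpf and Nek2, which were lower. An exact two-sided permutation test cannot go below 0.25 with 3 pairs or 0.1 with 3 against 3 libraries, so none was used for single genes. The libraries of the 2 sides did not overlap for 1438 genes higher with Dox (7.85%) and 1679 genes lower (9.16%).

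Genes of mitosis were lower with Dox at every Rh2 dose. In the list of 60 mitotic kinases, cyclins, kinesins and cytokinesis genes, 40 were concordant lower and 0 higher, 50 were lower at an unadjusted p under 0.05 in the edgeR test, and in 54 the highest library with Dox lay under the lowest without. Over all tested genes these shares were 1.55%, 0.704%, 5.1% and 9.16%. The median log2 ratio of the list was -0.90 without Rh2, -1.24 at 20 mg/kg and -2.03 at 30 mg/kg, beside -0.0046, 0 and -0.033 over all tested genes. Its summed normalised count was 52515 in Control and 36132 in Dox, 54793 and 30348 at 20 mg/kg, and 60114 and 24318 at 30 mg/kg. Every library with Dox lay below every library without it. Of the 285 concordant lower genes, 72 (25.3%) belonged to the kinetochore, mitotic or DNA replication list, whose 164 genes make up 0.895% of tested genes, and 0 of the 129 concordant higher genes did.

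The regulators of mitotic entry and exit named here were lower in each pair, and the size of the ratio differed more between pairs for Cdk1, Ttk and Melk than for Nek2. Nek2, a kinase of centrosome separation on chromosome 1 (191821449 to 191833049, GRCm38.p6), had 136 counts in Control and 20 in Dox, 155 and 15 at 20 mg/kg, and 151 and 14 at 30 mg/kg. Its mean log2 ratio was -3.12 ± 0.32 (SD, n = 3 pairs), and its adjusted p in edgeR was 0.040 without the dose term and 0.476 with it. Cdk1 had 155 and 52 counts without Rh2, 209 and 48 at 20 mg/kg, and 320 and 37 at 30 mg/kg, a mean ratio of -2.23 ± 0.70 (n = 3). Both kinases were low in all 3 libraries with Dox, with no overlap. Cdc25c, the phosphatase that activates Cdk1, had 47 counts in Control, 88 at 20 mg/kg and 58 at 30 mg/kg Rh2, and 0 in each library with Dox. Against a floor of 3 counts per library, it was lower by at least 15.8-fold, 29.9-fold and 17.7-fold. Ttk, the checkpoint kinase Mps1, had 209 and 59, 263 and 56, and 358 and 18 counts in the same order of doses. Melk, a kinase of proliferating cells, had 165 and 60, 220 and 66, and 228 and 17.

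Structural proteins of the spindle, the condensed chromosome and cytokinesis followed the same order. Kif2c, a kinesin that takes microtubules apart at the centromere, had 113 and 17 counts without Rh2, 178 and 35 at 20 mg/kg, and 221 and 0 at 30 mg/kg. Ncapg, a condensin subunit, had 435 and 147, 632 and 115, and 714 and 35 counts. Hmmr, a spindle assembly protein, had 181 and 65, 198 and 67, and 353 and 18. In each of these 3 genes the library with the lowest count was the Dox library at 30 mg/kg and that with the highest was its partner without Dox. For Cep55, which acts in the final cut between daughter cells, the counts were 134 and 46, 208 and 22, and 187 and 21. Iqgap3, a scaffold protein of proliferating cells, had 448 and 156, 476 and 94, and 645 and 34. Top2a, the topoisomerase II of dividing cells and a target of Dox, was taken up after its values were seen. It had 1646 counts in Control and 794 in Dox, 2238 and 596 at 20 mg/kg, and 2942 and 117 at 30 mg/kg, whereas Top2b, the form of non-dividing cells, had 28805 and 22513, 30262 and 26574, and 29723 and 26384. Mki67, the Ki-67 proliferation antigen, also named after its values were seen, had 8783 and 3822, 10708 and 2664, and 13001 and 677 counts.

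Of 41 kinetochore and spindle checkpoint genes, 18 were concordant lower and 0 higher, 21 were lower at an unadjusted p under 0.05 and 25 were lower with no overlap between the sides. The shares over all tested genes were 1.55%, 0.704%, 5.1% and 9.16%. The list median was -0.52, -0.68 and -1.21 at 0, 20 and 30 mg/kg Rh2. Cenpf, a large kinetochore protein on chromosome 1 (189640606 to 189688107), had 2830 and 1097 counts without Rh2, 2922 and 1243 at 20 mg/kg, and 2768 and 1196 at 30 mg/kg. Its mean ratio was -1.24 ± 0.15 (n = 3), and the adjusted p in edgeR was 0.038 without the dose term and 0.476 with it. The 95% counting intervals of its 3 ratios ran from -1.48 to -1.28, from -1.36 to -1.16 and from -1.18 to -0.99, so that only the first and the last did not meet. Kntc1, part of the complex that brings dynein to the kinetochore, had 843 and 193, 944 and 173, and 1169 and 76 counts, a mean ratio of -2.81 ± 0.88. Bub1, a checkpoint kinase, had 275 and 95, 433 and 50, and 469 and 19 counts. Cenpm was scarce, with 25 and 0, 30 and 0, and 50 and 7 counts, and so was Ska1 of the outer kinetochore, with 34 and 22, 43 and 10, and 75 and 0.

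DNA replication and S phase genes had smaller ratios. Of 64 genes, 15 were concordant lower and 0 higher, and 25 were lower at an unadjusted p under 0.05, beside 1.55%, 0.704% and 5.1% of all tested genes. The list median was -0.29, -0.34 and -0.40 at the 3 Rh2 doses. E2f1, a transcription factor of the S phase programme, had 195 and 96 counts without Rh2, 264 and 90 at 20 mg/kg, and 281 and 32 at 30 mg/kg. Dscc1, which helps to load the replication clamp, had 74 and 18, 79 and 28, and 109 and 20 counts, a mean ratio of -1.94 ± 0.40 (n = 3). Brca1 and Exo1, which act in repair by homologous recombination, had mean ratios of -1.80 ± 0.95 and -1.67 ± 0.97. Neil3, a repair glycosylase of dividing cells that belongs to no list here, had 336 and 77, 397 and 64, and 487 and 14 counts.

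The 3 cell cycle lists were lower in the pairs without Rh2 and at 20 mg/kg alone as well. In those 2 pairs 40 of 60 mitotic genes (66.7%), 19 of 41 kinetochore genes (46.3%) and 17 of 64 replication genes (26.6%) were lower by at least 0.58, beside 2.68% of all tested genes, and 0, 0 and 1 were higher, beside 3.85%. This count was added after the values were seen, because several marker lists, such as those of macrophages and fibroblasts, differed most in the pair at 30 mg/kg. There, 11 of 11 macrophage markers were lower with Dox, with a summed normalised count of 40579 without Dox and 19444 with it, while without Rh2 it was 26927 and 22503 and at 20 mg/kg 36065 and 32575. Fibroblast markers had a median ratio of 0.20, 0.33 and -1.27, and endothelial markers of 0.050, 0.12 and 0.000059, in the 3 pairs. Marker levels also differed in the first 2 pairs. Platelet markers had medians of 2.62, 3.79 and -1.29, neutrophil markers of 0.55, 1.32 and 0.55, and atrial markers of 6.09, 2.95 and -8.13. In bulk tissue fewer cells of a type and less RNA per cell cannot be told apart. The part of these cell types in the cell cycle result was not tested.

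**Figure D2:**
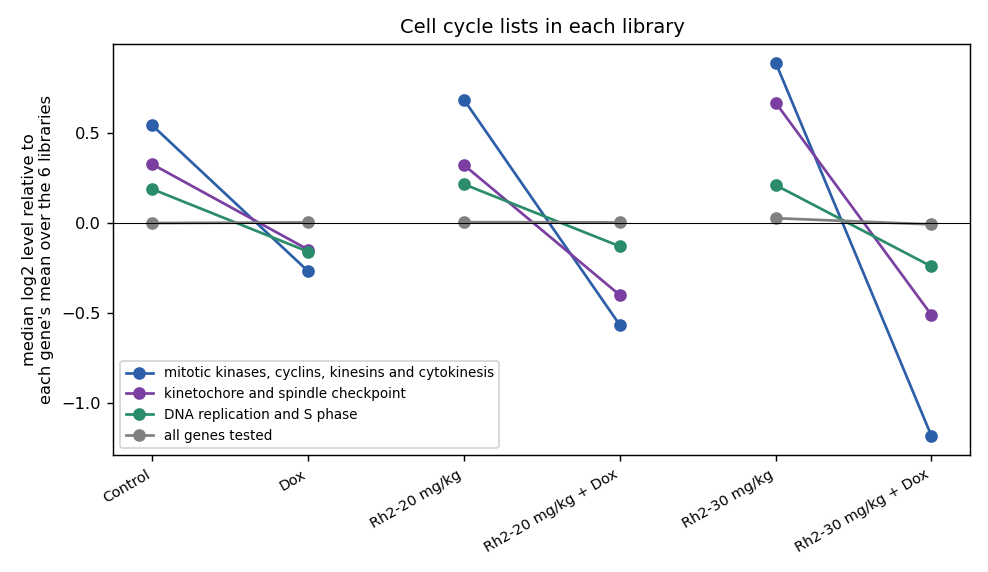
Points give the median log2 level of each cell cycle list in each library, relative to each gene's mean over the 6 libraries, with the libraries of a pair joined by a line and all tested genes in grey. The mitotic list runs from 0.54 in Control to -0.27 in Dox, from 0.68 to -0.57 at 20 mg/kg Rh2 and from 0.89 to -1.18 at 30 mg/kg, whereas all tested genes stay near 0.

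**Figure D3:**
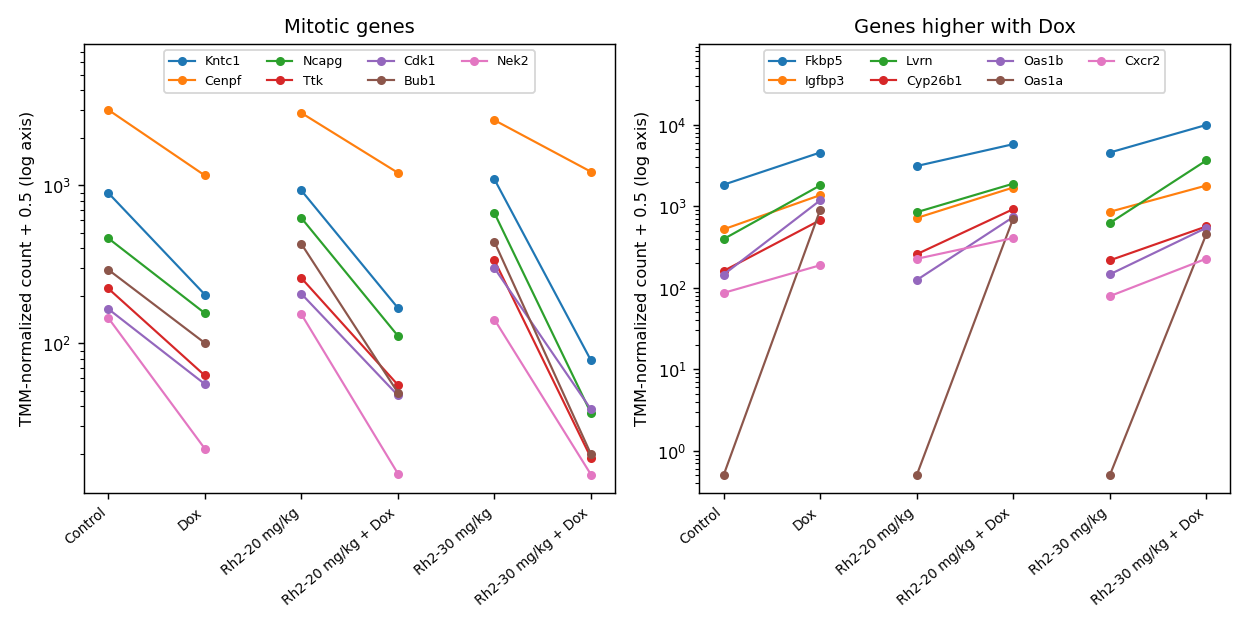
Normalised counts plus 0.5 on a log axis are shown for 7 mitotic genes (left) and 7 genes higher with Dox (right) in each library, with the libraries of a pair joined. All 7 mitotic genes slope down in each pair, and Oas1a goes from 0 counts without Dox to 447 to 850 counts with it.

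Genes of the p53 pathway, which DNA damage is known to raise, held 0 concordant members, beside 0.704% higher and 1.55% lower of all tested genes. In a list of this size a count of 0 cannot be told apart from those shares. Without overlap between the sides, 7 members were higher and 1 lower, beside 7.85% and 9.16% of all tested genes. Of 37 tested p53 targets, 5 were higher and 2 lower at an unadjusted p under 0.05 in the edgeR test, beside 3.62% and 5.1% of all tested genes. The list median was above 0 in each pair, at 0.054, 0.069 and 0.16. Its most highly counted members were Ccng1, cyclin G1, with a mean ratio of -0.066 ± 0.24 (n = 3), and Sesn1, a stress-induced regulator of mTORC1, with 0.45 ± 0.23. Fas, a death receptor, lay just outside the minimum size, with 3121 and 4681 counts without Rh2, 4203 and 6642 at 20 mg/kg, and 3878 and 6409 at 30 mg/kg, and ratios of 0.57, 0.63 and 0.85. Cdkn1a, which encodes the cell cycle inhibitor p21 and was taken up after its values were seen, had 230 and 368, 431 and 681, and 559 and 753 counts, with ratios of 0.66, 0.63 and 0.56. Its level with Dox alone lay below that of either Rh2 dose without Dox, so the sides overlapped while each pair had the same sign.

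Of the concordant higher genes, Oas1a and Oas1g had the greatest mean ratios. They are members of the Oas family, whose enzymes make the 2'-5' oligoadenylate that activates RNase L against viral RNA. Oas1a had 0 counts in each of the 3 libraries without Dox, and 850, 732 and 447 with Dox at 0, 20 and 30 mg/kg Rh2. Against a floor of 3 counts per library, this put the Dox side at least 281-fold higher without Rh2, at least 240-fold at 20 mg/kg and at least 163-fold at 30 mg/kg. Oas1g likewise had 0 counts without Dox and 382, 375 and 234 with it, or at least 126-fold, 123-fold and 85.1-fold more. The adjusted p in edgeR was 0.038 for both without the dose term and 0.476 with it. Oas1b, listed by RefSeq as a transcribed pseudogene in the reference strain, had 136 and 1120 counts without Rh2, 126 and 763 at 20 mg/kg, and 156 and 533 at 30 mg/kg, a mean ratio of 2.50 ± 0.57 (n = 3). These Oas genes lie near one another on chromosome 5, Oas1b at 120812635 to 120824163, Oas1g at 120876142 to 120887613 and Oas1a at 120896256 to 120907544. They are closely related copies, and how reads were shared between them by the counting is uncertain. The reads of these BALB/c mice were aligned to a genome of another strain, and whether alignment or differences between groups of mice bear on the counts of exactly 0 was not tested.

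Most other interferon genes were near even or lower. Of 8 tested Oas family members 3 were concordant higher and 0 lower, beside 0.704% and 1.55% of all tested genes. Of 42 interferon-stimulated genes, some of them Oas members too, 0 were concordant. At an unadjusted p under 0.05, 1 was higher and 6 were lower, beside 3.62% and 5.1% of all tested genes. The median of the interferon-stimulated list was 0.0062, -0.066 and -0.38. Its most highly counted members, Sp100, a nuclear body protein, and Ifi203, of the DNA-sensing p200 family, had mean ratios of -0.14 ± 0.04 and -0.15 ± 0.09. LOC115490171, a long non-coding RNA locus on chromosome 5 (24369125 to 24377318), far from the Oas genes, also had 0 counts in the 3 libraries without Dox and 323, 208 and 200 with it. The same limit on counts of exactly 0 holds for it. The difference was at least 107-fold, 68.1-fold and 72.7-fold, with an adjusted p in edgeR of 0.045 without the dose term and 0.485 with it.

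The GTPases induced by interferon gamma and the genes of antigen presentation were higher with Dox chiefly in the pair without Rh2. Of 33 genes, 32 were higher in that pair, 21 at 20 mg/kg and 12 at 30 mg/kg, with medians of 0.96, 0.078 and -0.19. Of these genes 0 were concordant, beside 2.26% of all tested genes. Gbp4, a guanylate-binding protein, had 31011 and 106283 counts without Rh2, 21322 and 23278 at 20 mg/kg, and 19516 and 18446 at 30 mg/kg. The Dox library thus stood apart from the other 5, which lay between 18446 and 31011. H2-D1, a class I antigen-presenting molecule, had ratios of 0.75, 0.54 and 0.23. Each pair is a single library against a single library, so a difference between doses has no replicate and was not tested.

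Outside the fixed lists, the concordant higher genes with the largest weakest pair were of several kinds. Cyp26b1, which breaks down retinoic acid, had 151 and 641 counts without Rh2, 262 and 954 at 20 mg/kg, and 232 and 555 at 30 mg/kg, a mean ratio of 1.76 ± 0.35 (n = 3). Igfbp3, a binding protein of insulin-like growth factors, had 490 and 1299, 730 and 1758, and 916 and 1764 counts, a mean ratio of 1.24 ± 0.16. Neither gene overlapped between the sides, as was so for 99 of the 129 concordant higher genes. Eya2, a transcriptional co-activator and phosphatase, had 125 and 250, 144 and 306, and 192 and 334, and its 3 ratios were the most alike of these higher genes, at 0.99 ± 0.07. Nt5e, the surface enzyme CD73 that makes adenosine, had 1652 and 2946, 1636 and 3513, and 2783 and 4463 counts. Lvrn, an aminopeptidase, had 372 and 1710, 860 and 1961, and 666 and 3584. The remaining named genes outside the lists were Cpne7, Gnb3 and Tmem63c, with mean ratios of 1.79 ± 0.73, 1.23 ± 0.49 and 1.04 ± 0.13. Cxcr2 and Cd3e, which belong to lists described below, had 1.17 ± 0.34 and 1.55 ± 0.82.

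The list of glucocorticoid targets and metallothioneins was split. Of 26 genes 2 were concordant higher and 4 lower, and 7 were higher and 7 lower at an unadjusted p under 0.05. The shares over all tested genes were 0.704%, 1.55%, 3.62% and 5.1%. Fkbp5, a co-chaperone of the glucocorticoid receptor and one of its best known targets, had 1730 and 4333 counts without Rh2, 3171 and 5981 at 20 mg/kg, and 4889 and 9770 at 30 mg/kg. Its fold was 2.48, 1.85 and 2.18, a mean log2 ratio of 1.11 ± 0.21 (n = 3). Rh2-30 mg/kg, without Dox, lay at the level of the Dox library, with 4561 normalised counts in each. The other concordant higher member was Map3k6, with 2634 and 4934, 4317 and 7125, and 4515 and 10124 counts. Mt2, a metallothionein that binds zinc, was lower, with 1333 and 421, 1955 and 1048, and 1609 and 772 counts. Pdk4, Dusp1 and Angptl4 were the other concordant lower members.

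Fatty acid metabolism held 3 concordant lower genes of 34 and 0 higher, beside 1.55% and 0.704% of all tested genes. Ucp3, an inner membrane carrier of muscle mitochondria, had 3861 and 966 counts without Rh2, 3191 and 945 at 20 mg/kg, and 4203 and 1693 at 30 mg/kg, a mean ratio of -1.66 ± 0.43 (n = 3). Pdk4, the kinase that shuts off pyruvate dehydrogenase, had 25379 and 10090, 29573 and 12940, and 36110 and 18419 counts, a mean ratio of -1.14 ± 0.26. Angptl4, an inhibitor of lipoprotein lipase, had 449 and 211, 356 and 186, and 922 and 134. The libraries of the 2 sides did not overlap for any of these 3 genes, beside 9.16% of all tested genes that were lower without overlap. The list as a whole did not keep 1 sign, with medians of -0.32, -0.32 and 0.37. At an unadjusted p under 0.05, 2 of its genes were higher and 7 lower, beside 3.62% and 5.1% of all tested genes. Plin2, a coat protein of lipid droplets named after its values were seen, had ratios of -0.51, -0.47 and -0.51, even in size but under the minimum.

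Immediate early genes, which answer within minutes to growth factors and stretch, were lower at each dose, with medians of -0.46, -0.23 and -0.40. Of 32 genes 3 were concordant lower and 0 higher, and 1 was higher and 11 lower at an unadjusted p under 0.05. The shares over all tested genes were 1.55%, 0.704%, 3.62% and 5.1%. Nr4a3, an orphan nuclear receptor, had 2232 and 344 counts without Rh2, 1111 and 396 at 20 mg/kg, and 1416 and 276 at 30 mg/kg, a mean ratio of -2.15 ± 0.60 (n = 3). Dusp1, a phosphatase that turns off MAP kinases, had 6226 and 3751, 6798 and 3697, and 7524 and 4111 counts, a mean ratio of -0.80 ± 0.09. Egr2, a zinc finger transcription factor, had 121 and 58, 81 and 51, and 286 and 30. For Nr4a3, Dusp1 and Egr2 alike the sides did not overlap, beside 9.16% of all tested genes that were lower without overlap.

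Chemokines and their receptors held 1 concordant higher and 5 concordant lower genes of 40, beside 0.704% and 1.55% of all tested genes. The list median was 0.14, -0.11 and -1.16. Cxcr2, the neutrophil receptor for CXC chemokines, was higher, with 81 and 179, 230 and 422, and 84 and 223 counts. Ccl7, a monocyte chemokine, had 142 and 71 counts without Rh2, 209 and 123 at 20 mg/kg, and 179 and 31 at 30 mg/kg. Cx3cr1, the fractalkine receptor of resident macrophages, had 336 and 218, 319 and 165, and 404 and 60. Ccr6 had 17 and 0, 12 and 0, and 116 and 10 counts, Ccl19 had 23 and 14, 27 and 16, and 72 and 0, and Cxcl1 was the last of the 5. Beside these, 2 of 8 tested neutrophil markers were concordant higher, Cxcr2 itself and Retnlg, and the summed neutrophil level was 582 and 792, 1349 and 2383, and 932 and 1156. Of T and NK cell markers Cd3e alone was concordant higher, with 80 and 220, 55 and 97, and 38 and 189 counts, while Cd3d was at 0 in all 6 libraries. Other T cell markers went the other way. Cd4 had 16 and 12, 34 and 8, and 36 and 9 counts, and Trac had 25 and 23, 27 and 20, and 47 and 20. Neither overlapped between the sides, beside 9.16% of all tested genes that were lower without overlap. Cd3g had 16 and 5, 0 and 0, and 7 and 0 counts, too few to be tested. The median ratio of the 6 tested T and NK cell markers was 0.88, 0.060 and -1.45 in the 3 pairs. The part of neutrophil or T cell number in these results was not tested.

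**Figure D4:**
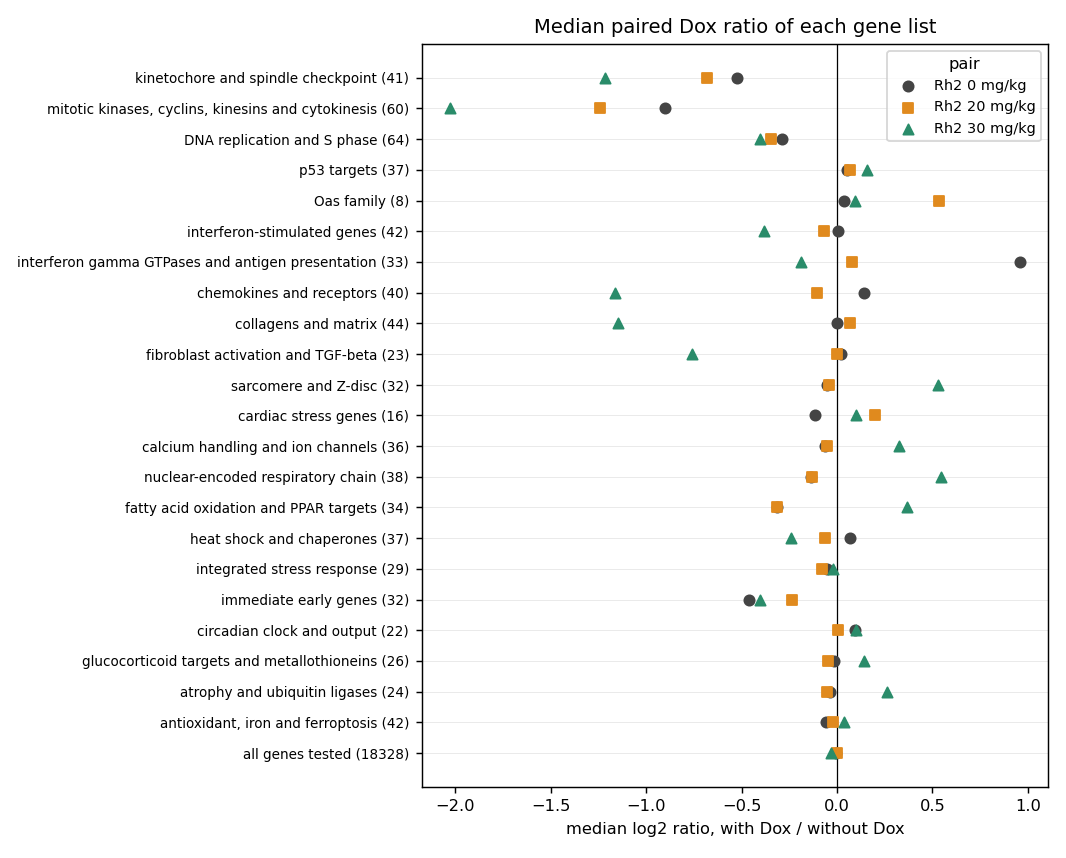
Each row is a gene list with its number of tested genes, and the symbols give the median log2 ratio of its genes, with Dox to without, in the pairs at 0, 20 and 30 mg/kg Rh2. The mitotic and kinetochore lists lie left of 0 in each pair, all tested genes lie near 0, and the interferon gamma, collagen, respiratory chain and sarcomere lists differ in sign or size between pairs.

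The median ratios of the sarcomere, respiratory chain and calcium handling lists were small in the pairs without Rh2 and at 20 mg/kg and above 0 at 30 mg/kg. Sarcomere and Z-disc genes (32) had medians of -0.053, -0.042 and 0.53, and Myh6 had ratios of 0.033, -0.025 and 0.53 and Ttn of -0.031, -0.078 and 0.43. Not every member followed the median, and Acta1 and Myl4 were picked out after their values were seen. Acta1, the skeletal actin, had ratios of -0.66, -0.73 and 0.089, and Myl4, an atrial marker here, of 5.16, 2.66 and -8.13. Of 38 nuclear-encoded respiratory chain genes 28 and 35 were lower with Dox in the first 2 pairs, and all 38 were higher in the third. Their medians were -0.14, -0.13 and 0.55, and 0 were concordant, beside 2.26% of all tested genes. Atp5a1 and Atp5b, subunits of the ATP synthase, had mean ratios of 0.044 ± 0.46 and -0.020 ± 0.40. Myocyte markers had ratios of the same size, with a median of -0.016, -0.040 and 0.53 over 8 of 8 genes, and their part in these lists was not tested. Calcium handling genes (36) had medians of -0.064, -0.051 and 0.33. Ryr2, the calcium release channel, and Atp2a2, the calcium pump SERCA2, had mean ratios of 0.028 ± 0.05 and 0.089 ± 0.23. The 16 cardiac stress genes held 0 concordant members, beside 2.26% of all tested genes, with medians of -0.11, 0.20 and 0.097. Single members differed far more, and Nppa and Mybphl, both also atrial markers here, were picked out after their values were seen. Nppa, a natriuretic peptide, had 3607 and 16217 counts without Rh2, 3252 and 16608 at 20 mg/kg, and 56331 and 6416 at 30 mg/kg. Mybphl had ratios of 6.09, 2.95 and -8.58. Myh7, the fetal myosin heavy chain, had ratios of 0.0052, 0.11 and 0.59, and Xirp2, of the intercalated disc, of -0.73, -0.55 and 0.11.

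The medians of the matrix lists lay near 0 in the first 2 pairs and below 0 in the third. The 44 collagens and matrix genes had medians of 0.0012, 0.068 and -1.15, and the 23 fibroblast activation genes of 0.019, -0.000043 and -0.76. Either list held 0 concordant genes, beside 2.26% of all tested genes. In lists of this size a count of 0 cannot be told apart from that share. Of the collagens and matrix genes, 2 were higher and 8 lower at an unadjusted p under 0.05, beside 3.62% and 5.1% of all tested genes. Single genes thus differed in the first 2 pairs as well, and the following 4 were picked out after their values were seen. The basement membrane collagens Col4a1 and Col4a2 had ratios of -0.77, -0.32 and -0.83, and of -0.95, -0.41 and -0.46. Col15a1 had ratios of -0.87, -0.43 and -1.84. Lox, which cross-links collagen, was higher, with ratios of 0.89, 0.99 and 0.066. Col3a1, a fibrillar collagen, had 36000 and 22452 counts without Rh2, 39859 and 34068 at 20 mg/kg, and 87731 and 12509 at 30 mg/kg. Dcn, a small proteoglycan of fibroblasts, had ratios of 0.50, 0.50 and -0.32. Postn and Acta2, which mark activated fibroblasts and smooth muscle, had mean ratios of -0.85 ± 1.24 and -0.17 ± 0.07. Fibroblast markers were lower in 8 of 8 genes in the third pair and higher in 7 of 8 in each of the others, with a summed level of 144312 and 181718, 152613 and 190102, and 228750 and 141149, and their part in the matrix result was not tested.

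Protein quality and stress lists held 0 or 1 concordant genes each, beside 2.26% of all tested genes. In lists of this size such counts cannot be told apart from that share. Heat shock genes (37) and antioxidant and iron genes (42) had 0, and so had the clock (22) and atrophy (24) lists, while the integrated stress response (29) had 1, Pycr1, a proline synthesis enzyme, with 54 and 15, 56 and 33, and 64 and 13 counts. Their medians lay between -0.24 and 0.26 in every pair. The most highly counted members were close to even. Hspa8 and Hspa9, chaperones of the cytosol and mitochondrion, had mean ratios of -0.073 ± 0.05 and -0.019 ± 0.31. Vldlr and Nars, a lipoprotein receptor and a tRNA synthetase, had 0.14 ± 0.56 and 0.013 ± 0.08. Per1 and Nr1d2 of the clock had -0.19 ± 0.26 and 0.035 ± 0.10, the ubiquitin ligase Nedd4 -0.12 ± 0.07, and the ferritin genes Fth1 and Ftl1 0.14 ± 0.06 and 0.25 ± 0.82 (n = 3 each).

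Atrial myocyte, white fat and platelet markers differed in direction between pairs. All 7 atrial myocyte markers were higher with Dox in the first 2 pairs and lower in the third, with summed levels of 4452 and 35546, 6115 and 44925, and 160327 and 7253. The library with the most atrial transcript was Rh2-30 mg/kg. Sln, the atrial regulator of the calcium pump, had 14 and 1828, 326 and 4393, and 15768 and 0 counts, and Myl7, the atrial light chain, 56 and 9134, 1187 and 10613, and 52896 and 19. White fat markers (6 of 7 tested, Lep at 0 in 5 libraries) summed to 480 and 3881, 1887 and 1989, and 25410 and 42.8. All 8 platelet and megakaryocyte markers were higher in the first 2 pairs and lower in the third, at 1823 and 12414, 1679 and 18219, and 3641 and 1428. None of the atrial, white fat or platelet markers was concordant, beside 2.26% of all tested genes. A total of 90 genes averaging 100 counts or more had ratios of at least 1 in size in every pair but unlike signs.

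Major urinary protein genes, known mainly from the liver, were low and uneven. Mup9 had 24 and 4 counts without Rh2, 72 and 16 at 20 mg/kg, and 807 and 6 at 30 mg/kg, and Mup17 had 20 and 0, 100 and 0, and 784 and 0. These copies are near-identical, so their counts are uncertain. Htr3a, a serotonin receptor channel of nerves, had 6 and 0, 10 and 0, and 205 and 0. In all 3 genes most of the count came from Rh2-30 mg/kg.

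**Figure D5:**
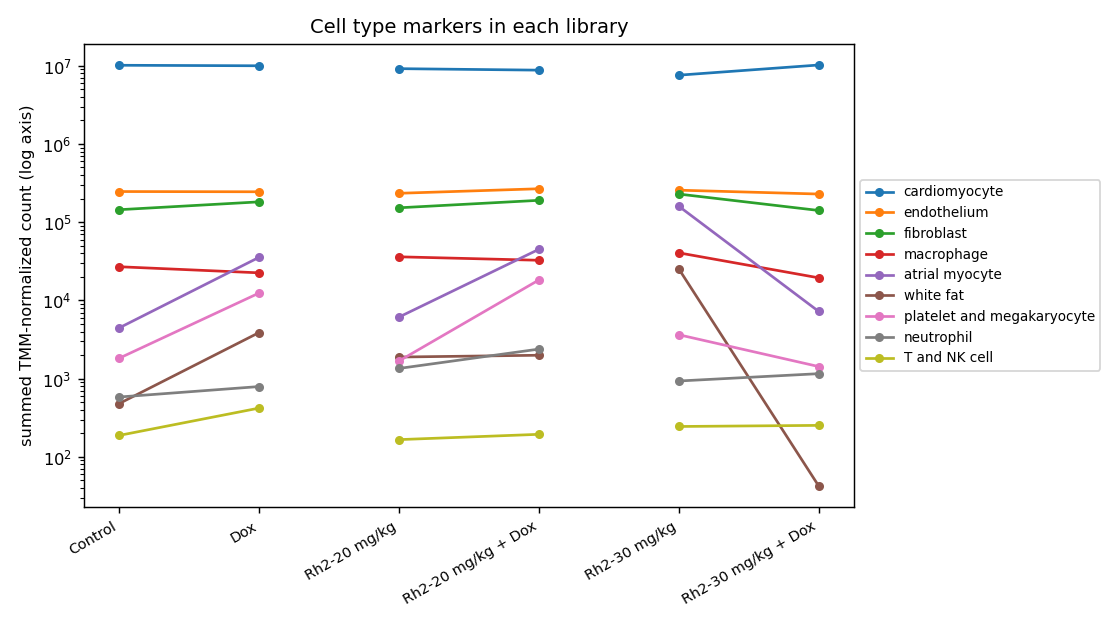
Summed normalised counts of 9 marker lists are shown on a log axis in each library, with the libraries of a pair joined. Endothelial sums stay between 228884 and 267283, macrophage sums go from 40579 to 19444 in the third pair, and atrial, white fat and platelet sums change direction between pairs.

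At the minimum size itself, the concordant genes averaging 100 counts or more just inside were Retnlg and Mfsd2b among higher genes, whose weakest ratios were 0.58 and 0.60, and Papln and Slc44a5 among lower genes, each at -0.58. Just outside lay Ankrd37 and Fas, each with a weakest ratio of 0.57, and Pxylp1 and Nrep, at -0.57 and -0.58.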

How the data were processed

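Hearts of 6 groups of mice were measured by RNA-seq, with 1 library per group. The authors built libraries with a SureSelect XT RNA Direct capture kit, whose probes can miss transcripts they were not designed for, and per the submitters' processing notes used bcl2fastq 2.20.0, Trimmomatic, HISAT2 2.1.0 and StringTie 2.1.3b with mm10. Whether counting used strand is not given in the sources used here, so reads of overlapping genes cannot be told apart. The deposited table gives per gene the read count, FPKM and TPM of each library; the 6 TPM columns were not used, and FPKM only as an alternative. Depth was 86164411 to 90621002 counts, and intervals and floors (95%, 3 counts) cover counting error only.

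Genes averaging 10 counts or more were normalised by TMM, and ratios were taken as log2(normalised count + 0.5), with Dox minus without. Fits used edgeR 4.0.16 (glmQLFit, glmQLFTest, R 4.3.3) on all 6 libraries, with terms for Rh2 dose and Dox, two-sided, Benjamini-Hochberg over 18328 genes. Limma 3.58.1 and DESeq2 1.42.0 were alternatives. The fit was also run on simulated counts, with a Dox effect equal at every dose and a dispersion below the 0.0781 of the real counts. That run therefore does not show how many real differences the fit can find here. The blocks pair libraries by treatment, not by shared animals, so p-values measure only spread between pooled libraries. The concordance rule, the 22 gene lists and the 18 marker lists were chosen with earlier results of these data known. Named genes were those with an adjusted p under 0.05 in either edgeR fit; the 12 concordant genes per direction with the largest weakest pair (averaging 100 counts or more, over 3 in every library); up to 5 with no more than 3 counts on 1 side; up to 4 concordant members of each list, or its 2 most highly counted; 3 genes of opposed ratios; and those at the minimum size. Genes named otherwise are so marked, and a few genes that the rule names are not reported here. Promoters came from the RefSeq table of GRCm38.p6, in which 12805 tested genes had a window, the first listed being used.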

Additional observations from a re-analysis of the deposited data

Results flagged for a closer look

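Among the gene and marker lists and the named genes, the medians of 3 marker lists and the ratios of 3 genes were at least 0.58 in size in every pair and, in the pair at 30 mg/kg Rh2, of the opposite sign to both other pairs. Other markers also changed sign there but were smaller in some pair, such as white fat, with medians of 2.97, 0.23 and -9.02, and fibroblast, with 0.20, 0.33 and -1.27. Each pair is a single library against a single library, so this difference between doses was not tested. The median log2 ratio with Dox to without at 30 mg/kg was -8.13 for atrial myocyte markers, against 6.09 without Rh2 and 2.95 at 20 mg/kg. It was -1.49 for erythroid markers, against 1.42 and 1.08, and -1.29 for platelet and megakaryocyte markers, against 2.62 and 3.79. Sln had -14.84 at 30 mg/kg, against 6.97 and 3.72, Myl7 had -11.28, against 7.32 and 3.13, and Sphkap, an anchoring protein of protein kinase A, had -10.46, against 7.56 and 3.38. Sln and Sphkap were at 0 counts with both agents at 30 mg/kg, and their ratios there depend on the pseudocount.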

How the results depend on the processing

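No gene had an adjusted p under 0.05 with the dose block under DESeq2 size factors, other count filters or limma-voom. The count was 5 with no dose block, 311 by DESeq2's Wald test, and 0 to 487 when a pair or library was left out, the 487 coming without the pair at 30 mg/kg (with no block, 3 without the library Rh2-30 mg/kg and 14 without its partner with Dox, and 0 without any of the other 4). Of the 487 genes, 24 were concordant higher, 77 concordant lower and 32 in the kinetochore and mitotic lists. Genes at an unadjusted p under 0.05 ranged from 194 to 1741 higher and from 506 to 1821 lower without a pair.

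Concordant higher and lower genes numbered 256 and 480 with no count filter, 51 and 174 at a mean of at least 50, 16 and 26 on FPKM plus 1, 42 and 168 on FPKM plus 0.1, 34 and 91 at a size of 1, 1438 and 1679 by no overlap, and 240 to 706 and 491 to 750 without a pair. With FPKM plus 1, whose pseudocount shrinks low genes, list medians were -0.28 (kinetochore), -0.48 (mitotic), -0.19 (replication), 0.018 (p53), -0.029 (integrated stress response), -0.23 (immediate early) and -0.0089 (clock). The kinetochore median was -0.54 at a mean of at least 50. Without a pair, medians ranged from -0.53 to -0.32 (replication), -0.28 to 0.10 (cardiac stress), -0.075 to -0.028 (integrated stress response), -0.44 to -0.33 (immediate early) and 0.023 to 0.12 (clock).

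Libraries were paired by Rh2 dose, which is the dose block; pairing by animal was not possible, since each group has 1 pooled library. Depth limited scarce genes, where 1 library at 0 sets the ratio.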

Other observations

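The clustered core histone genes, a family taken up after its values were seen, held 8 concordant lower and 0 concordant higher genes among 48 tested. Over all tested genes the shares were 1.55% and 0.704%. These genes are transcribed in S phase to package new DNA. The median ratio was -0.079 without Rh2, -0.69 at 20 mg/kg and -1.42 at 30 mg/kg, and 27, 41 and 47 of the 48 were lower with Dox. H3c3 had 366 and 233 counts without Rh2, 592 and 153 at 20 mg/kg, and 904 and 48 at 30 mg/kg. H2bc14 had 203 and 113, 460 and 111, and 546 and 33. Such copies are near-identical in their coding sequence, and their counts are uncertain.

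Hif3a, a hypoxia-inducible factor subunit that restrains the others, was concordant higher with 417 and 829, 470 and 788, and 622 and 1910 counts. Dpep1, a dipeptidase, had 511 and 2452, 995 and 2353, and 1914 and 2869. Both were picked out after their values were seen.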
